A study of Homo sapiens with 18 samples.

Results

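The genes described here encode the machinery that moves proteins into the endoplasmic reticulum (ER) and packs them into transport vesicles. They are the rows of a deposited RNA-seq gene count table whose names match the signal recognition particle proteins (SRP), the SEC11, SEC13, SEC16, SEC22, SEC23, SEC24, SEC31, SEC61, SEC62 and SEC63 genes, the COPI coat subunits, the translocon-associated proteins (SSR), the signal peptidase subunits (SPCS), the TMED genes and the LMAN lectins. This gave 61 of 61267 gene rows, chosen by name and not by value. Of these, 57 are protein-coding genes, which fall into 9 classes by role. The other 4, SEC63P1, SEC63P2, SEC13P1 and SEC11B, are pseudogenes in RefSeq that share the name pattern. ARCN1, which encodes the delta subunit of COPI, does not match the pattern and is given with the related genes further on. Of 39708 deposited m6A peaks, 136 overlap an exon of one of the 61 genes on its own strand.

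The study used LoVo, an established human colorectal cancer cell line, with either the K513R form of METTL3, in which arginine replaces a lysine, or wild-type METTL3 (WT). N6-methyladenosine (m6A) is written on mRNA by an enzyme complex in which METTL3 does the catalysis, and the series asks what methylation of METTL3 itself does. K513R and WT cells each gave 3 libraries of RNA-seq from total RNA depleted of rRNA, 3 MeRIP IP libraries, made by pulling down fragmented poly(A) RNA with an antibody to m6A, and 3 MeRIP input libraries, made from the same fragments before the pull-down. The sources used here do not give how the K513R cells were made or whether each line is a single clone. No label says whether numbered libraries stem from different cultures. The p-values therefore reflect only how far these libraries differ from each other, which may be technical.

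A protein that starts with a signal peptide is caught as it leaves the ribosome by the signal recognition particle, a complex of 7SL RNA and SRP proteins, which docks it at the SEC61 channel of the ER membrane. The SSR proteins form the TRAP complex beside that channel, and the signal peptidase cuts the signal peptide off. Folded cargo then leaves the ER in vesicles coated with COPII, while COPI vesicles carry cargo and escaped ER proteins back from the Golgi, and the p24 receptors (TMED genes) and LMAN receptors span the vesicle membrane and link cargo to these coats. TMED8 has the name and the cargo-binding type of domain of this family but is not counted among its membrane-spanning receptors, so counts are given with and without it. These genes are active in every cell that secretes proteins, intestinal epithelium among them.

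Each K513R RNA-seq library held 47451837 to 53795212 counts in genes, and each WT library 47105235 to 51886164. Counts inside peaks summed to 5905811 to 9198650 per K513R IP library, against 11076729 to 12491969 per WT IP library, and to 2625446 to 4847236 per K513R input library, against 5025027 to 6200264 per WT input library. The K513R MeRIP values thus rest on fewer counts. Rows named RN7SL, for the 7SL RNA and its copies, held 17.9 ± 0.742% of the RNA-seq counts in K513R and 2.30 ± 0.518% in WT (mean ± SD, n = 3 each). Mitochondrially encoded genes held 0.281 ± 0.0631% in K513R and 4.16 ± 0.725% in WT. Levels are given as CPM, the count scaled to library size with TMM factors, and a value after ± is the SD over 3 libraries for a level and the SE for a log2 change. Of 10 markers of intestinal epithelium, EPCAM, CDH1, KRT8, KRT18 and KRT19 had the highest levels, while CEACAM5 and CDH17 were near 0 in both genotypes, at 0.105 and 0.254 CPM in K513R and 0.0525 and 0.0194 CPM in WT. Of the 8 markers tested, 2 rose (CDH1 and GPA33) and 6 fell. The summed level of the 10 was 2486 to 2679 CPM in K513R and 10655 to 15410 CPM in WT. Most of it came from KRT8, at 1915 CPM in K513R and 8821 CPM in WT. In the inputs 5 of the 10 were tested. There CDH1 rose (log2 change 0.63, K513R over WT), EPCAM fell (-0.36), and KRT8 (0.21), KRT18 (-0.15) and CDX2 (0.40) did not pass. The summed level of 18 markers of fibroblasts, endothelium, blood cells and NCAM1-positive cells was 60.9 to 66.9 CPM in K513R and 41.3 to 52.6 CPM in WT, with MS4A1 near 0 in both, and 11 rose and 1 fell of 16 tested. What part these differences have in the results below was not tested. In bulk RNA, fewer cells of a type and less RNA per cell cannot be told apart.

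In the RNA-seq libraries, most TMED genes rose in K513R cells, while most SRP proteins, most signal peptidase genes and most subunits of both vesicle coats fell. Of the 61 genes, 59 passed the low-count filter, and 17 rose, 32 fell and 10 did not pass the threshold (edgeR quasi-likelihood test, adjusted p under 0.05). Calls were common everywhere in this comparison: 78.3% of the 30377 genes tested passed, 41.5% higher and 36.9% lower. The share of the 59 that passed is thus close to that of all genes. The libraries of the genotypes did not overlap for 51 of the 59, and for 80.3% of all genes tested. The median log2 change (K513R over WT) was -0.43 over the 59 and 0.13 over all genes. Of the 9224 genes with a tested m6A peak, 29.2% rose and 54.3% fell, so more falls than rises were not particular to this set. With a mean of at least 1 CPM as the filter, the medians were -0.27 over the set and 0.02 over all genes. With upper-quartile factors these medians moved to -0.17 and 0.39, so small changes depend on the scaling. The 61 genes together held 0.364 ± 0.0138% of the counts in K513R and 0.372 ± 0.0193% in WT, a difference within the spread between libraries (exact permutation test, two-sided, p = 0.5, where 3 against 3 allows no p below 0.1).

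**Figure D1:**
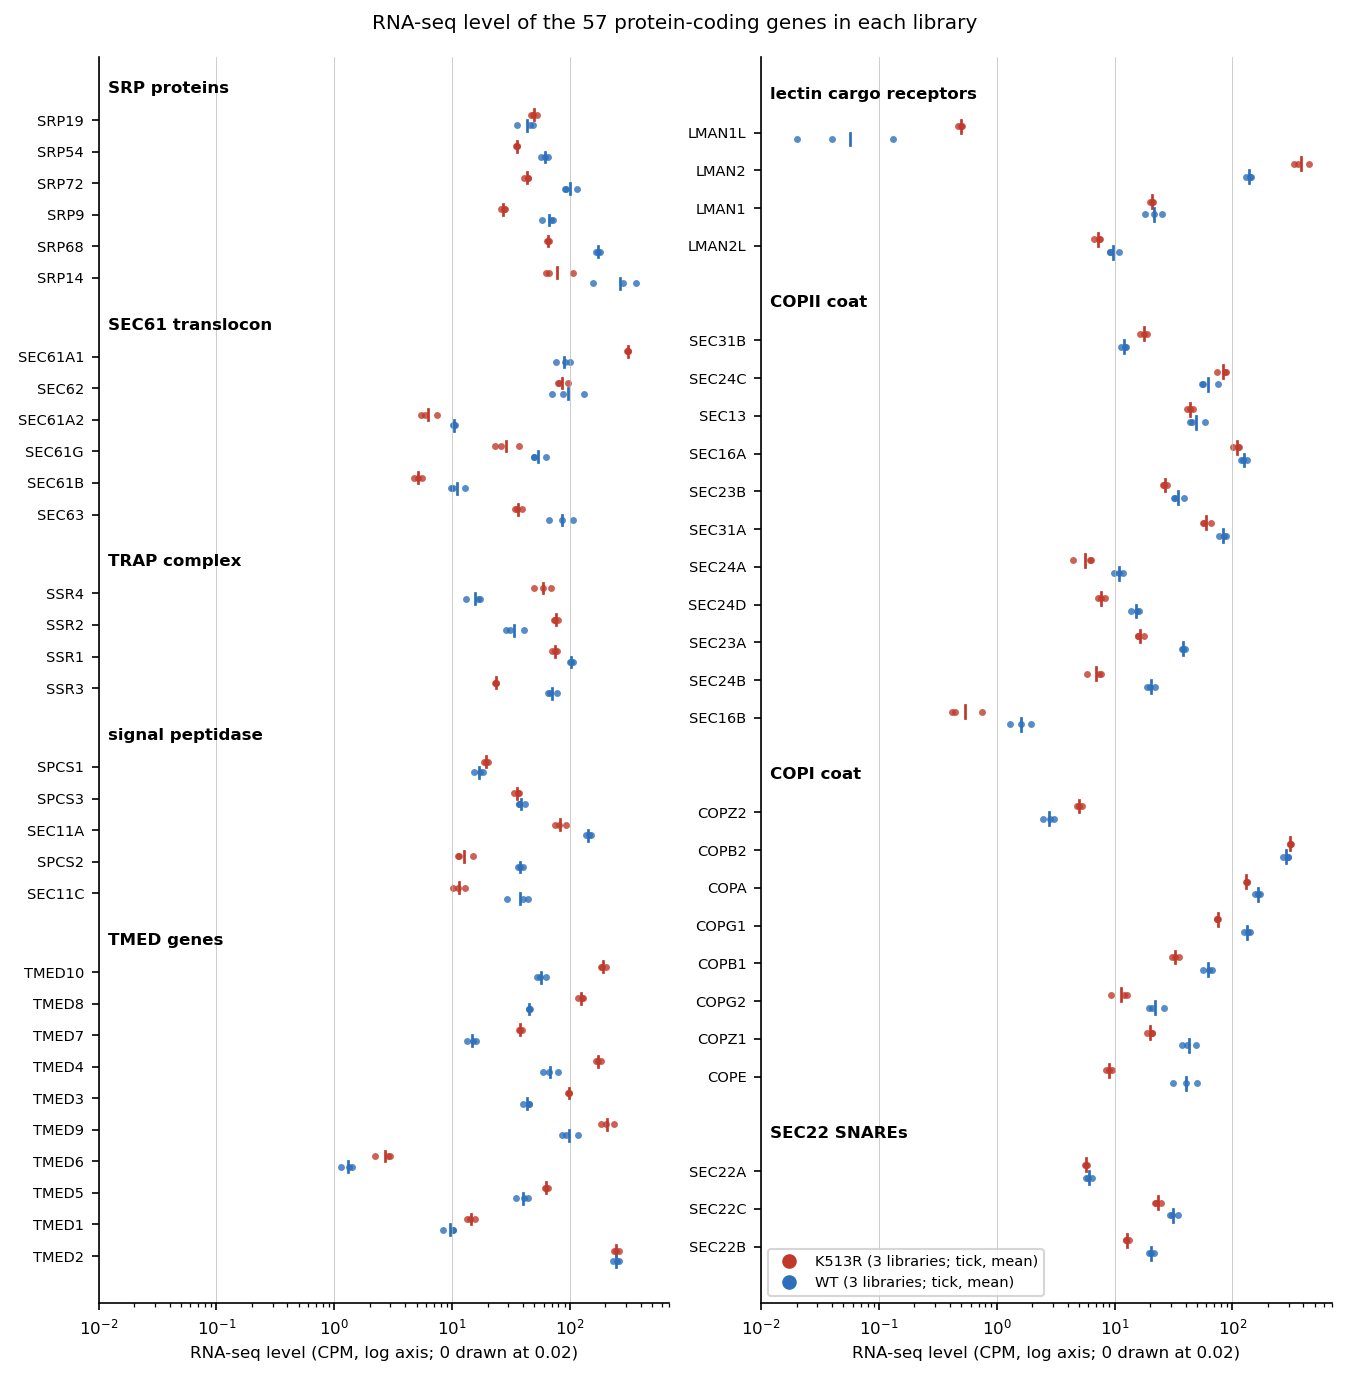
RNA-seq level in CPM on a log axis of the 57 protein-coding genes, by role class, with the 3 K513R libraries above the 3 WT libraries for each gene and a tick at each mean. A library at 0 is drawn at 0.02 CPM. All TMED genes but TMED2 lie further right in K513R, and all SRP proteins but SRP19 lie further left.

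Of the 6 SRP proteins, 5 fell, none rose and SRP19 did not pass, with a median log2 change of -1.25, and 5 were lower under each of the alternatives run. SRP14, which with SRP9 forms the dimer that slows translation until the ribosome has docked, had 66.1, 106 and 63.2 CPM in K513R, against 366, 283 and 156 CPM in WT. The genotypes did not overlap, but the WT libraries differed from each other more than for any other SRP gene, and the log2 change of -1.78 had an SE of 0.37 (adjusted p = 0.00541). SRP9 averaged 27.1 ± 1.15 CPM in K513R and 66.5 ± 7.55 CPM in WT and fell by 1.29 on the log2 scale (adjusted p = 6.77e-09). SRP68 and SRP72 form the largest protein dimer of the particle. SRP68 had 64.6, 66.7 and 64.3 CPM in K513R, against 167, 174 and 179 CPM in WT, and the 2 ranges lie far apart (log2 change -1.41 ± 0.10 SE, adjusted p = 6.53e-10). SRP72 fell by 1.21 on the log2 scale, to 43.1 ± 1.84 CPM in K513R, against 99.6 ± 14.2 CPM in WT. SRP54, the GTPase that binds the signal peptide, had 35.8, 35.4 and 35.2 CPM in K513R, against 65.1, 61.8 and 56.4 CPM in WT (log2 change -0.78 ± 0.10, adjusted p = 1.53e-06). SRP19, which helps SRP54 onto the RNA, had 49.3 ± 2.69 CPM in K513R and 43.3 ± 6.65 CPM in WT, and its libraries overlapped.

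The RNA of the same particle went the other way. RN7SL1 had 62239, 68872 and 54521 CPM in K513R, against 5493, 7992 and 8522 CPM in WT (log2 change 3.08 ± 0.18, adjusted p = 3.96e-11), and RN7SL2 rose by 3.11 ± 0.18. The 2 genes are near-identical copies, so the split of counts between them is uncertain. Every K513R library lay above every WT library for both. This is the same difference as in the share of counts held by RN7SL rows given above. With these RNAs, 7SK and the mitochondrial genes left out, 5 SRP proteins were lower as well.

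**Figure D2:**
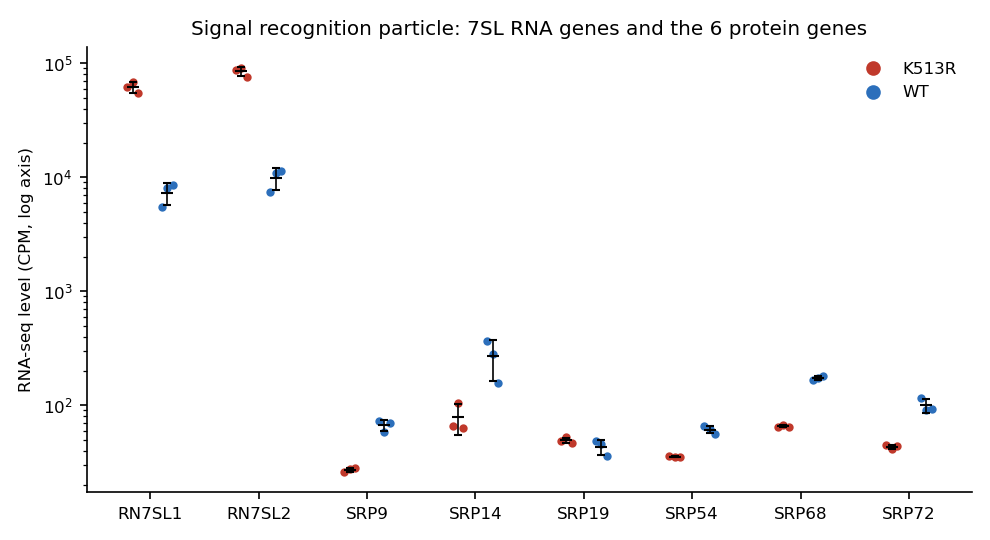
RNA-seq level in CPM on a log axis of the 2 7SL RNA genes and the 6 SRP protein genes, with 1 point per library, K513R left of WT, and the mean ± SD in black (n = 3 each). The RNA genes are higher in K513R, and the protein genes other than SRP19 are lower.

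At the channel itself, 1 gene rose and 4 fell of 6. SEC61A1, which encodes the pore-forming alpha subunit, had 309, 313 and 307 CPM in K513R, against 76.9, 91.0 and 99.8 CPM in WT. All WT libraries lay below the K513R libraries (log2 change 1.79 ± 0.12, adjusted p = 1.65e-10). The small subunits that complete the channel went down: SEC61B had 5.16, 5.54 and 4.76 CPM in K513R, against 10.2, 9.77 and 12.8 CPM in WT (log2 change -1.09, adjusted p = 2.36e-06), and SEC61G averaged 28.7 ± 7.58 CPM in K513R and 54 ± 7.25 CPM in WT (log2 change -0.91). Per kilobase of exon, the order of the 3 subunits differed between the genotypes. The length, here and below, is that of all annotated exons of a gene merged, and it can exceed that of the mRNA. It was 11707 bases for SEC61A1, 1842 for SEC61G and 1209 for SEC61B, and an order of different genes by this measure depends on it. SEC61A1, SEC61G and SEC61B had 26.5, 15.6 and 4.26 CPM per kb in K513R, and 7.62, 29.3 and 9.05 CPM per kb in WT, so SEC61A1 had the highest level in K513R and the lowest in WT. SEC61A2, another alpha subunit gene, averaged 6.29 ± 1.02 CPM in K513R and 10.4 ± 0.231 CPM in WT (log2 change -0.73). SEC63, which ties the channel to the chaperone HSPA5, had 34.1, 39.1 and 35.9 CPM in K513R, against 105, 85.2 and 65.8 CPM in WT, with no overlap (log2 change -1.23 ± 0.14, adjusted p = 3.87e-07). SEC62, its partner in the import of small precursors, did not pass, with 81.0, 96.7 and 79.1 CPM in K513R and 131, 87.9 and 70.5 CPM in WT.

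The 4 TRAP genes split evenly. SSR4, the delta subunit, had 58.9, 68.5 and 49.8 CPM in K513R, against 13.2, 16.4 and 17.3 CPM in WT (log2 change 1.92 ± 0.13, adjusted p = 4.48e-10), and SSR2, the beta subunit, averaged 76.0 ± 2.90 CPM in K513R and 33.4 ± 6.37 CPM in WT (log2 change 1.18, adjusted p = 1.06e-07). SSR3, the gamma subunit, had 23.7, 23.0 and 23.7 CPM in K513R, against 68.2, 65.1 and 77.0 CPM in WT (log2 change -1.58 ± 0.11, adjusted p = 2.63e-10). For all 3 the genotypes did not overlap. SSR1, the alpha subunit, fell by 0.47 on the log2 scale (adjusted p = 0.000351), a call that is lost with upper-quartile factors (log2 change -0.21, adjusted p = 0.0649). Per kilobase of exon, SSR4, SSR2, SSR1 and SSR3 had 12.9, 11.4, 6.57 and 4.54 CPM per kb in K513R, and 3.42, 5.03, 9.09 and 13.5 CPM per kb in WT. By this measure the order of the 4 subunits in K513R was the reverse of that in WT. The order depends on the merged exon lengths, which were 4564, 6643, 11349 and 5179 bases for SSR4, SSR2, SSR1 and SSR3. Of the exonic length of SSR3, 20.8% overlaps a gene on the opposite strand, and the counts do not separate strands.

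Of the 5 signal peptidase genes, 3 fell and none rose. SEC11C, 1 of the 2 catalytic subunits, had 10.2, 12.9 and 11.2 CPM in K513R, against 39.8, 44.1 and 29.3 CPM in WT (log2 change -1.72 ± 0.14, adjusted p = 4.93e-09). SEC11A, the other catalytic subunit, had 75.4, 92.2 and 81.4 CPM in K513R, against 145, 136 and 151 CPM in WT, a smaller fall (log2 change -0.79 ± 0.11, adjusted p = 3.05e-06). SPCS2, an accessory subunit, had 11.5, 15.0 and 11.2 CPM in K513R, against 38.0, 40.0 and 36.2 CPM in WT (log2 change -1.60 ± 0.12, adjusted p = 1.7e-09). No K513R library reached the lowest WT library for any of the 3. SPCS1 and SPCS3 did not pass, at log2 changes of 0.19 and -0.11, and 56.6% of the exonic length of SPCS1 overlaps other genes, mostly NEK4 on the opposite strand.

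Among the TMED genes, 9 of 10 rose and none fell, with a median log2 change of 1.12, and 7 of them rose by at least 1 on the log2 scale, beside 32.1% of all genes tested. Without TMED8, 8 of the 9 p24 receptors rose, 6 of them by at least 1, with a median of 1.07. Across the alternatives run, 9 or 10 of the 10 were higher. The p24 receptors form mixed oligomers of alpha, beta, gamma and delta types that gather cargo such as lipid-anchored proteins. TMED10, the delta type, had 203, 186 and 182 CPM in K513R, against 52.5, 55.3 and 62.9 CPM in WT. The lowest K513R library lay far above the highest WT library (log2 change 1.74 ± 0.11, adjusted p = 1.3e-10). TMED8 had 129, 117 and 126 CPM in K513R, against 44.7, 44.6 and 45.7 CPM in WT (log2 change 1.46 ± 0.10, adjusted p = 4.32e-10). TMED2, the beta type and the partner with which TMED10 is best known to assemble, had 259, 238 and 249 CPM in K513R and 249, 232 and 263 CPM in WT. Its libraries overlapped and its log2 change was 0.00 ± 0.10 (adjusted p = 0.988), while upper-quartile factors gave a rise of 0.27 (adjusted p = 0.0256). Per kilobase of exon, TMED10 and TMED2 had 38.4 and 64.8 CPM per kb in K513R, and 11.5 and 64.7 CPM per kb in WT.

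The other TMED genes that rose were TMED7, TMED4, TMED3, TMED9, TMED6, TMED5 and TMED1, with log2 changes of 0.59 to 1.36, and in each the lowest K513R library was above the highest WT library. TMED9, an alpha type, had 204, 235 and 182 CPM in K513R, against 85.8, 117 and 93.0 CPM in WT. TMED4, also an alpha type, had 183, 167 and 173 CPM in K513R, against 59.6, 66.5 and 78.6 CPM in WT. TMED7, a gamma type, had 37.9, 37.1 and 39.1 CPM in K513R, against 15.0, 13.3 and 16 CPM in WT. In all 3 the genotypes are well apart. TMED6 was low in both genotypes, at 2.69 ± 0.405 CPM in K513R and 1.3 ± 0.140 CPM in WT. Shared reads limit 3 of these values, since other genes overlap 48.3% of the exonic length of TMED1 (DNM2, opposite strand), 33.6% of TMED6 and 20.0% of TMED7, where the other gene is the readthrough transcript TMED7-TICAM2.

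The lectin receptors did not move together, with 2 higher, 1 lower and 1 not past of 4. LMAN2 (VIP36), which binds high-mannose glycoproteins, had 362, 448 and 333 CPM in K513R, against 129, 140.0 and 145 CPM in WT, with no overlap (log2 change 1.46 ± 0.12, adjusted p = 5.18e-09). LMAN1 (ERGIC-53), the receptor that carries coagulation factors out of the ER, had 21.4, 20.0 and 20.6 CPM in K513R and 25.2, 21.6 and 18.3 CPM in WT, which overlap (log2 change -0.07 ± 0.12, adjusted p = 0.605). LMAN2L averaged 7.19 ± 0.407 CPM in K513R and 9.71 ± 1.06 CPM in WT (log2 change -0.43, adjusted p = 0.00716), a call that is lost with upper-quartile factors (adjusted p = 0.258) or with 7SL, 7SK and mitochondrial genes left out (adjusted p = 0.0787). LMAN1L passed with a log2 change of 3.01 ± 0.66 on 72 counts in K513R and 9 in WT. Another gene on the same strand covers 71.4% of its exons, and without WT replicate 1 the change was 4.38.

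Of the 11 COPII genes, 2 rose, 7 fell and SEC16A and SEC13 did not pass. SEC24B, a cargo-binding subunit, had 5.82, 7.64 and 7.34 CPM in K513R, against 22, 19.9 and 18.8 CPM in WT (log2 change -1.54 ± 0.13, adjusted p = 6.33e-09). SEC23A, the subunit that activates the GTPase SAR1, had 15.9, 17.8 and 15.8 CPM in K513R, against 37.6, 39.5 and 37.9 CPM in WT (log2 change -1.22 ± 0.10, adjusted p = 7.1e-09). Its paralogue SEC23B fell less, by 0.37 on the log2 scale, to 26.6 ± 0.910 CPM in K513R, against 34.3 ± 3.91 CPM in WT. The cargo-binding subunits SEC24D and SEC24A fell by 0.97 and 0.95. SEC24D averaged 7.73 ± 0.584 CPM in K513R and 15.1 ± 1.09 CPM in WT. In all of these the K513R libraries lay below the WT libraries. SEC31A, a subunit of the outer cage, had 57.1, 65.5 and 55.9 CPM in K513R, against 88.7, 84.1 and 76.3 CPM in WT (log2 change -0.48, adjusted p = 0.000547), and lost its call with upper-quartile factors (adjusted p = 0.0693). Its paralogue SEC31B had 17.8, 16.3 and 18.7 CPM in K513R, against 12.4, 11.4 and 12.2 CPM in WT, and rose (log2 change 0.55 ± 0.11, adjusted p = 0.000245), although another gene covers 18.5% of its exons.

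SEC24C, the other COPII gene that rose, had 88.2, 73.3 and 86.8 CPM in K513R and 55.4, 56.4 and 75.0 CPM in WT, and the libraries overlap. Its call (log2 change 0.41 ± 0.13, adjusted p = 0.00636) was lost without WT replicate 1 (adjusted p = 0.0562) and without WT replicate 2 (adjusted p = 0.0816), and 42.8% of its exonic length overlaps an opposite-strand gene. SEC16B, a scaffold of the sites where COPII vesicles form, was low, with 0.446, 0.749 and 0.413 CPM in K513R, against 1.96, 1.3 and 1.60 CPM in WT (log2 change -1.60, adjusted p = 0.000168), and lies for 58.7% of its exons under a readthrough gene. SEC16A, the main scaffold, had log2 change -0.19 ± 0.10 and did not pass. Over both coats, 5 of 19 genes fell by at least 1 on the log2 scale, a share close to the 25.7% of all genes tested. None rose as much, beside 32.1% of all genes tested.

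Of the 8 COPI genes, 6 fell, 1 rose and COPB2 did not pass. COPE, the epsilon subunit, had 9.43, 9.03 and 8.45 CPM in K513R, against 31, 49.8 and 40.2 CPM in WT. This was the largest fall among the protein-coding genes of the set (log2 change -2.17 ± 0.15, adjusted p = 3.08e-10). COPZ1, a zeta subunit, had 18.8, 20.9 and 20.7 CPM in K513R, against 37.4, 41.2 and 48.7 CPM in WT (log2 change -1.08 ± 0.12, adjusted p = 1.43e-07). The other zeta gene, COPZ2, rose, with 4.99, 5.24 and 4.80 CPM in K513R, against 2.46, 2.83 and 3.05 CPM in WT (log2 change 0.85 ± 0.17, adjusted p = 0.000166). In CPM per kilobase of exon, COPZ1 stood at 5.16 and COPZ2 at 2.69 in K513R, and COPZ1 at 10.9 and COPZ2 at 1.49 in WT, so COPZ1 stayed above its paralogue. The gamma subunits COPG1 and COPG2 fell by 0.84 and 0.97 on the log2 scale, and the beta subunit COPB1 had 30.7, 35.4 and 32.3 CPM in K513R, against 67.3, 56.0 and 62.8 CPM in WT (log2 change -0.92, adjusted p = 4.59e-07). COPA, the alpha subunit, averaged 132 ± 1.82 CPM in K513R and 165 ± 7.70 CPM in WT (log2 change -0.32, adjusted p = 0.00734), and did not pass with upper-quartile factors (log2 change -0.06, adjusted p = 0.599), with a mean of at least 1 CPM as the filter (-0.20, adjusted p = 0.0737) or with 7SL, 7SK and mitochondrial genes left out (-0.18, adjusted p = 0.166). COPB2, the beta prime subunit, had 311, 307 and 313 CPM in K513R and 296, 267 and 295 CPM in WT (log2 change 0.12 ± 0.10), with 34.1% of its exonic length under MRPS22 on the opposite strand. Over both coats, 13 of 19 genes fell and 3 rose, and 10 to 14 fell across the alternatives. Of all genes tested 36.9% fell and 41.5% rose, and of the 9224 genes with a tested peak 54.3% fell and 29.2% rose.

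SEC22B, the SNARE protein that fuses ER-derived vesicles with their target, averaged 12.8 ± 0.501 CPM in K513R and 20.5 ± 0.955 CPM in WT (log2 change -0.68 ± 0.11, adjusted p = 1.87e-05). SEC22C fell by 0.44, a call that is lost with upper-quartile factors (adjusted p = 0.137), and SEC22A did not pass at -0.08. Of the 4 pseudogenes, SEC63P1 and SEC13P1 fell on 8 counts each in K513R and 45 and 49 in WT, SEC63P2 had no count and SEC11B had 2.

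Several ER genes are known targets of the unfolded protein response, whose factors XBP1 and ATF6 bind short promoter elements. The 250 bases before the start that RefSeq gives for each gene were searched on both strands for the letters TGACGTGG (the unfolded protein response element, UPRE), for CCAAT and CCACG with 9 bases of any kind between them (ERSE), for ATTGG and CCACG with 1 base between them (ERSE-II) and for TGACGTCA (CRE). RefSeq promoters (GRCh38.p14) were matched for 52 of the 61 genes. TMED4, TMED9, SEC24D, SPCS1, LMAN1L and the 4 pseudogenes had no entry. RefSeq's start is not always the outermost start in the deposited count table: 19 of the 52 stretches end right before that start, 31 reach past it into the gene as the table has it, and 2 end short of it. UPRE letters were found in 6 of the 52 (11.5%), against 0.667% of 27305 promoters. The other 3 elements were in none of the 52, and in 0.0806% (ERSE), 0.0513% (ERSE-II) and 1.77% (CRE) of all promoters. The UPRE and CRE letters differ at their last 2 bases and cannot be the same match. The 6 genes are COPB1, COPB2, SEC24A, SEC62, SRP19 and SEC16B. In RNA-seq 3 of them fell (COPB1 -0.92, SEC24A -0.95 and SEC16B -1.60), 3 did not pass (SEC62 -0.17, COPB2 0.12 and SRP19 0.19), and none rose. A match is a stretch of letters and says nothing about binding. The promoters of 4 of the 6 are printed to show where the match lies, in the direction of the gene, with the match in capitals (CCACGTCA is TGACGTGG on the other strand).
COPB1, chr11:14499812-14500061, minus strand: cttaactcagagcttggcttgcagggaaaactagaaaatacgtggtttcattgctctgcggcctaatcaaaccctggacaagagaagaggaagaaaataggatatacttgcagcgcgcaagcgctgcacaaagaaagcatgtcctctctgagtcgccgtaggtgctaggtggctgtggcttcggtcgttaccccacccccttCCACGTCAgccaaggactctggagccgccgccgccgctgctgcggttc
COPB2, chr3:139389681-139389930, minus strand: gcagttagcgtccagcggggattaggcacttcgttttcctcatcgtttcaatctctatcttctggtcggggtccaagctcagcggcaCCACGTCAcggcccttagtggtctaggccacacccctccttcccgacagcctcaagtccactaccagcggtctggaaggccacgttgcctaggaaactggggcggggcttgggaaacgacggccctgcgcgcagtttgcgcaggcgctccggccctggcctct
SEC24A, chr5:134648535-134648784, plus strand: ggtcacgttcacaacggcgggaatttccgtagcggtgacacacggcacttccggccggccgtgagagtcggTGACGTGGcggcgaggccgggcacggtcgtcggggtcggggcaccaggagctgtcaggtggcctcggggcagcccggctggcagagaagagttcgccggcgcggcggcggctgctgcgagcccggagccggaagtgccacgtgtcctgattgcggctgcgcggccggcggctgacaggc
SEC62, chr3:169966557-169966806, plus strand: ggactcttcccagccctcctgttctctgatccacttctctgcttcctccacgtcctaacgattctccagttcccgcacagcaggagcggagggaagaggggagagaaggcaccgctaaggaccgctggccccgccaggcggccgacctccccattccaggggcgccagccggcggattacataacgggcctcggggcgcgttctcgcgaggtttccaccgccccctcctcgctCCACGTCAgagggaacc
The match starts 48 bases before RefSeq's start in COPB1, 163 in COPB2, 179 in SEC24A and 17 in SEC62. By the deposited table, the last 216 of the 250 bases lie inside the gene in COPB1, 172 in SEC62, 56 in COPB2 and 0 in SEC24A, so the matches of COPB1 and SEC62 fall inside the gene and those of COPB2 and SEC24A before it. The COPB1 match also lies inside a deposited m6A peak (chr11:14499624-14499937), whose values are given with the peaks.

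Genes that work with this machinery were also counted, from lists put together with earlier results of these data known. Of 22 tested partners of the translocon and subunits of the oligosaccharyltransferase, which adds N-glycans as the protein enters, 12 rose and 7 fell. OST4, a small oligosaccharyltransferase subunit, averaged 44.0 CPM in K513R and 4.64 CPM in WT (log2 change 3.24 ± 0.15), and DNAJC1, an ER co-chaperone, 12.9 CPM in K513R and 52.1 CPM in WT (log2 change -2.01 ± 0.14). Of 16 genes of the EMC and GET routes of membrane insertion, 9 rose and 4 fell. EMC4 averaged 474.8 CPM in K513R and 54.2 CPM in WT (log2 change 3.13 ± 0.16), and SGTA, which captures tail-anchored proteins, 14.8 CPM in K513R and 59.0 CPM in WT (log2 change -1.99 ± 0.11). Among 27 coat GTPases and regulators, 8 rose and 16 fell. The cargo receptor SURF4 averaged 117.9 CPM in K513R and 37.7 CPM in WT (log2 change 1.65 ± 0.12), and ARFGAP3, which switches off the COPI GTPase ARF1, 5.05 CPM in K513R and 23.0 CPM in WT (log2 change -2.19 ± 0.14). ARCN1 fell with most of the COPI genes, at 59.7 CPM in K513R and 228.5 CPM in WT (log2 change -1.94 ± 0.11). Of 23 tethers and SNAREs between ER and Golgi, 8 rose and 11 fell, TRAPPC4 most upward (2.10) and BNIP1 most downward (-2.66). Of 18 genes of the clathrin coat, the coat of the later secretory and endocytic routes, 3 rose and 11 fell, AP1S2 most upward (0.95) and AP2A2 most downward (-3.16). The median log2 changes of the 5 lists were 0.32, 0.43, -0.38, -0.19 and -0.76, beside 0.13 over all genes. The counts above stand beside 41.5% higher and 36.9% lower of all genes tested. Among the 9224 genes with a tested peak, 29.2% rose and 54.3% fell.

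The MeRIP inputs measure poly(A) RNA of the same 2 genotypes, and here the changes were smaller. Input counts were summed per gene over its non-overlapping peaks, so genes without a peak have no value. Of the 61 genes, 46 had a peak and 33 passed the low-count filter, of which 3 rose, 4 fell and 26 did not pass, beside 27.1% called of all 8611 genes tested, 13.5% higher and 13.6% lower (edgeR, adjusted p under 0.05). The genotypes did not overlap for 11 of the 33, and for 42.3% of all genes tested. The median log2 change was -0.07 over the 33 and 0.01 over all. SRP14 had 415, 247 and 227 CPM in the K513R inputs, against 696, 868 and 702 CPM in the WT inputs, with no overlap (log2 change -1.34 ± 0.20, adjusted p = 0.000901), so it fell in both measurements. SRP72 also fell in both, with a log2 change of -0.36 ± 0.11 in the inputs (adjusted p = 0.0185). SPCS2 fell by 0.38 in the inputs (adjusted p = 0.0308), which did not pass with library size only (-0.25, adjusted p = 0.193), in DESeq2 (adjusted p = 0.0539), with a replicate block (adjusted p = 0.059), or without WT replicate 1 or 3 or K513R replicate 3 (adjusted p 0.0877 to 0.162). TMED8 had 194, 221 and 224 CPM in the K513R inputs, against 143, 106 and 138 CPM in the WT inputs (log2 change 0.72 ± 0.12, adjusted p = 0.000313), and rose in both measurements. SRP19 rose in the inputs (log2 change 0.48 ± 0.11, adjusted p = 0.00306), but unevenly over its peaks. The peak 38.2% along its merged exons held 1337 input counts in K513R and 812 in WT. The peak at 9.4% held 593 in K513R and 1192 in WT, and that at 47.4% held 300 in K513R and 327 in WT. These counts are not scaled to library size. Input libraries held 2625446 to 4847236 counts in K513R and 5025027 to 6200264 in WT, so equal counts stand for a higher level in K513R. ZRSR2P1, on the same strand, overlaps part of the exons of SRP19, and its part in the rise was not tested. SEC61A1 rose by 0.34 in the inputs (adjusted p = 0.0324), and did not pass with no low-count filter (adjusted p = 0.053), in DESeq2 (adjusted p = 0.0824), with a replicate block (adjusted p = 0.0705), without K513R replicate 3 (adjusted p = 0.0704) or without any one of the WT replicates (adjusted p 0.0802 to 0.119).

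TMED5 went opposite ways. It had 65.1, 63.0 and 61.2 CPM in K513R RNA-seq, against 44.0, 35.0 and 40.7 CPM in WT RNA-seq (log2 change 0.66 ± 0.11, adjusted p = 2.37e-05). In the inputs it had 4.85, 4.53 and 9.55 CPM in K513R, against 13.6, 11.1 and 12.2 CPM in WT (log2 change -1.01 ± 0.30, adjusted p = 0.0188), on 45 counts in K513R and 137 in WT. The genotypes did not overlap in either measurement. The fall in the inputs lost its call without WT replicate 1 or 3 or K513R replicate 1 or 2 (adjusted p 0.0614 to 0.0793), and with 1 peak per gene (adjusted p = 0.0649).

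A joint edgeR model asked for each gene whether its RNA-seq change differed from its input change. Of 46 genes tested, the RNA-seq change was higher in 13, lower in 6 and not different past the threshold in 27, beside 53.1% called of all 11481 genes tested, 25.0% higher and 28.0% lower. This model scales the RNA-seq counts over genes with peaks alone, not over all genes as above, which sets its differences higher than those between the separate log2 changes by 0.37 to 0.41 (median 0.39) over the 33 genes tested in both. With the scaling of the separate fits, an alternative added after the data were seen, 9 genes were higher and 10 lower, beside 16.8% higher and 38.3% lower of all genes, and the median over all genes was -0.44, against -0.06 in the joint model. The calls of SEC24C, COPB2, SPCS3 and SEC61A2 as higher were lost, SEC22B, COPB1, SEC11A and SEC22C became lower, and no call changed sign. Of the 8 TMED genes in this model, 5 were higher and none lower, with a median difference of 1.24 on the log2 scale, and the same number was higher with the scaling of the separate fits. Differences in the next sentences are those of the joint model. TMED10 rose by 1.74 in RNA-seq while its input levels were 16.7, 16.3 and 23.1 CPM in K513R and 18.3, 16.6 and 19.8 CPM in WT, which overlap (difference of the log2 changes 2.13 ± 0.20, adjusted p = 3.36e-09). The difference was 2.25 ± 0.25 for TMED4, 1.19 ± 0.19 for TMED3 and 1.13 ± 0.16 for TMED8. SEC61A1 (1.84 ± 0.16), SSR2 (1.89 ± 0.38), SSR4 (3.06 ± 0.60) and LMAN2 (1.60 ± 0.19) also had a higher change in RNA-seq. The inputs behind SSR4 held 8 counts in K513R and 20 in WT, and those behind SSR2 held 26 in K513R and 48 in WT. On the other side, COPE fell by 2.17 in RNA-seq, while its input levels were 141, 138 and 125 CPM in K513R and 143, 134 and 148 CPM in WT (difference -1.71 ± 0.19, adjusted p = 4.29e-08). The main peak behind these COPE inputs spans 6387 bases, 3.3% of it in exons, with 1016 counts in K513R and 1577 in WT. Within it, 152 bases at the start of the gene held 897 counts in K513R and 1360 in WT. The COPE inputs thus measure mainly its start. SRP68 (-1.02 ± 0.17), SRP9 (-0.83 ± 0.21), SPCS2 (-0.83 ± 0.18), SEC63 (-0.68 ± 0.19) and SRP72 (-0.45 ± 0.17) had a lower change in RNA-seq. Their inputs also cover only part of each gene. Those of SPCS2 come from 1 peak at 3.0% of the merged exons, and those of SRP9 from 1 at 95.9%. In K513R, a peak at 1.6% held 222 of the 343 input counts of SRP68. Peaks with 4.8% and 6.1% in exons held 788 of 1271 for SRP72 and 1063 of 1896 for SEC63. Over the 33 genes tested in both, the log2 changes had Pearson's r of 0.46 and Spearman's rho of 0.49, and 0.30 and 0.31 over all 8514 genes, as a description over genes that share their libraries. The median absolute log2 change over the 33 was 1.07 in RNA-seq and 0.31 in the inputs, beside 0.95 and 0.32 over all genes. The 2 measurements differ in RNA selection, fragmentation and the regions counted, and what part each has in the difference was not tested.

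**Figure D3:**
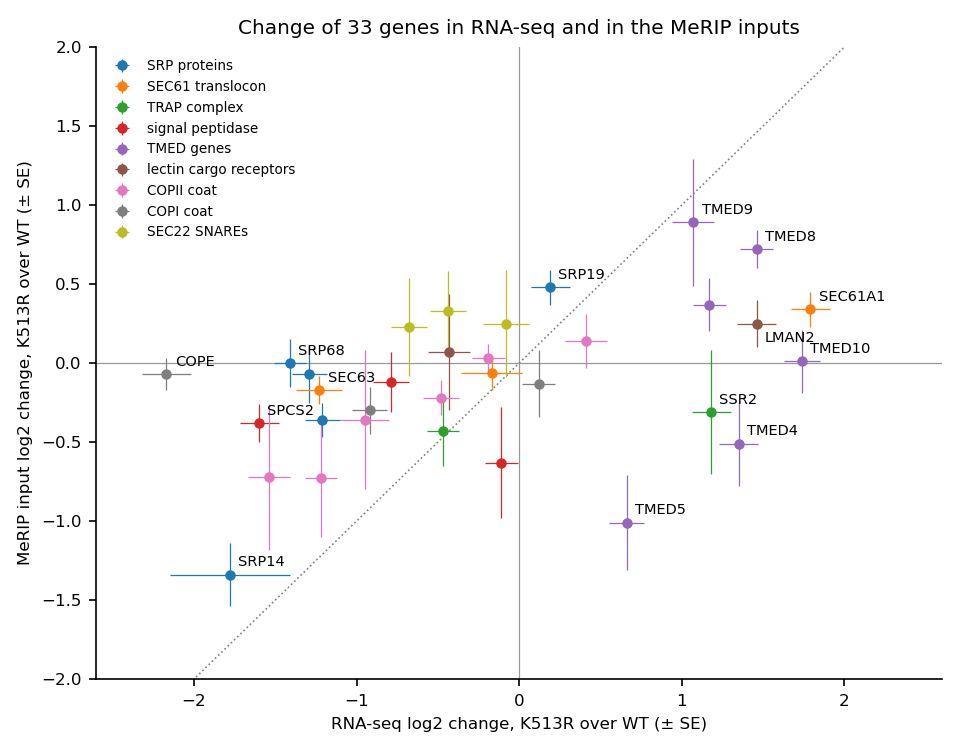
Log2 change in RNA-seq (x axis) and in the MeRIP inputs (y axis) of the 33 genes tested in both, K513R over WT, with the SE of each and colours by role class. The dotted line marks equal changes. The points spread from COPE at -2.17 to SEC61A1 at 1.79 along x, and from SRP14 at -1.34 to TMED9 at 0.89 along y.

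Peaks of m6A covered the set about as often as other genes at a similar level. Of the 41 genes that averaged 20 CPM or more, 33 had a peak (80.5%), beside 82.9% of 7256 genes. The 136 peaks, from a list called in K513R and a list called in WT, reduce to 95 that do not overlap each other, of which 68 had enough counts to test. The value for a peak is its log2 IP over input, from CPM relative to the total over tested peaks in that library, so that a negative value marks a peak weaker than is typical. Of the 68, the enrichment was higher in K513R in 14, lower in 6 and not past the threshold in 48 (edgeR interaction of genotype and IP), beside 22.6% called of all 27252 peaks tested, 13.0% higher and 9.61% lower. The median log2 difference (K513R minus WT) was 0.06 over the 68 and -0.05 over all peaks. Of the 14 higher peaks 13 came from the K513R list, and all 6 lower peaks from the WT list, but each list was called on these same libraries and is no independent support. With each input paired to its IP, 16 were higher and 7 lower, beside 16.9% higher and 12.7% lower of all peaks tested. No call was lost, and 3 peaks were added, at SRP14 (chr15:40038837-40039121, minus strand, 8.8% along the merged exons, difference 0.97, adjusted p = 0.00375), at SRP68 (chr17:76072337-76072457, minus strand, 1.6%, difference 0.76, adjusted p = 0.0369) and, as lower, at SEC61A1 (chr3:128069635-128070685, plus strand, 86.8%, difference -0.56, adjusted p = 0.0355). The values below are without the pairing.

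The largest gain was at the start of TMED4 (chr7:44582077-44582287, minus strand, GRCh38, 2.8% along the merged exons), with log2 IP over input of 0.29, 1.43 and 0.56 in K513R, against -1.20, -0.75 and -0.96 in WT, from 184 IP counts in K513R and 133 in WT (difference 1.85 ± 0.36, adjusted p = 0.00209). At the end of SRP9 (chr1:225790288-225790468, plus strand, 95.9%) the values were -0.03, -0.51 and 0.75 in K513R, against -1.17, -1.36 and -1.66 in WT (difference 1.53 ± 0.30, adjusted p = 0.00188). A peak at the start of SSR1 (chr6:7313134-7313225, minus strand, 1.7%) had 0.07, 0.81 and 1.35 in K513R, against -0.81, -0.44 and -0.69 in WT (difference 1.29 ± 0.30, adjusted p = 0.00491). In all 3 the K513R libraries lay above the WT libraries, and they scattered more widely among themselves. The peak at the start of COPB1 (4.4%), which reaches into the stretch printed above, had 0.20, -0.02 and 0.14 in K513R, against -0.86, -0.95 and -1.03 in WT (difference 1.08 ± 0.23, adjusted p = 0.00335). The start of SPCS2 (chr11:74949260-74949563, plus strand, 3.0%) had 0.58, 0.57 and 0.60 in K513R, against -0.54, 0.01 and -0.29 in WT (difference 0.87 ± 0.20, adjusted p = 0.0053), and lost its call without WT replicate 1 (adjusted p = 0.0719). TMED10 (1.33), SEC31A (1.20), LMAN2 (1.16), SEC63 (1.02 and 0.69), SEC62 (0.81), SRP72 (0.72), COPE (0.67) and SEC16A (0.62) held the other gains. The LMAN2 call was lost without K513R replicate 2 (adjusted p = 0.0841), WT replicate 1 (0.0816) or WT replicate 3 (0.0647), and the SEC63 peak with 1.02 without WT replicate 1 (0.0564). Many of the gains listed without coordinates span introns and lie mostly outside exons of the gene. These are the peaks of SEC31A (9959 bases, 2.7% in exons), SRP72 (9080, 4.8%), SEC62 (8190, 14.2%) and COPE (6387, 3.3%). The SEC63 peak with 0.69 (16515, 6.1%) and that of SEC16A (354, 47.2%) belong here too. Over the set, 16 of the 95 peaks span over 1000 bases with less than 50% of it in exons of the gene.

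The losses without the pairing were in TMED8, TMED3, TMED9, SEC16A and SEC62. In TMED8 a peak that reaches the last exon (chr14:77341590-77343469, minus strand) had -1.38, -1.60 and -1.41 in K513R, against -0.18, 0.13 and -0.11 in WT, from 1088 IP counts in K513R and 3188 in WT (difference -1.41 ± 0.19, adjusted p = 0.000295). The 2 genotypes lie more than 1 log2 unit apart there. TMED3 (chr15:79322382-79322533, plus strand) had -1.38, -2.54 and -1.96 in K513R, against -0.76, -0.49 and -0.01 in WT (difference -1.61 ± 0.39, adjusted p = 0.0072). TMED9 (chr5:177595415-177595595, plus strand) had -0.99, -1.47 and -1.04 in K513R, against 0.10, 0.53 and 0.18 in WT (difference -1.66 ± 0.54, adjusted p = 0.0317), on 42 IP counts in K513R and 132 in WT. This call was lost without K513R replicate 2 or any one of the WT replicates (adjusted p 0.0831 to 0.113). SEC16A lost enrichment in its last exon (chr9:136440425-136440816, minus strand, difference -1.35 ± 0.37, adjusted p = 0.0131) and in a long exon near its start (chr9:136476184-136477354, difference -0.93 ± 0.20, adjusted p = 0.00379). The last-exon call was lost without any one of the WT replicates (adjusted p 0.0511 to 0.0907). SEC62 carried the called peak with the highest enrichment in WT (chr3:169988241-169993195, plus strand), with 0.93, 0.86 and 0.83 in K513R, against 1.51, 1.47 and 1.55 in WT, from 9550 IP counts in K513R and 29704 in WT (difference -0.63 ± 0.21, adjusted p = 0.0363). It did not pass without K513R replicate 2 or any one of the WT replicates (adjusted p 0.0909 to 0.13), and among the peaks above the median deposited fold enrichment its difference was -0.41 (adjusted p = 0.273).

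**Figure D4:**
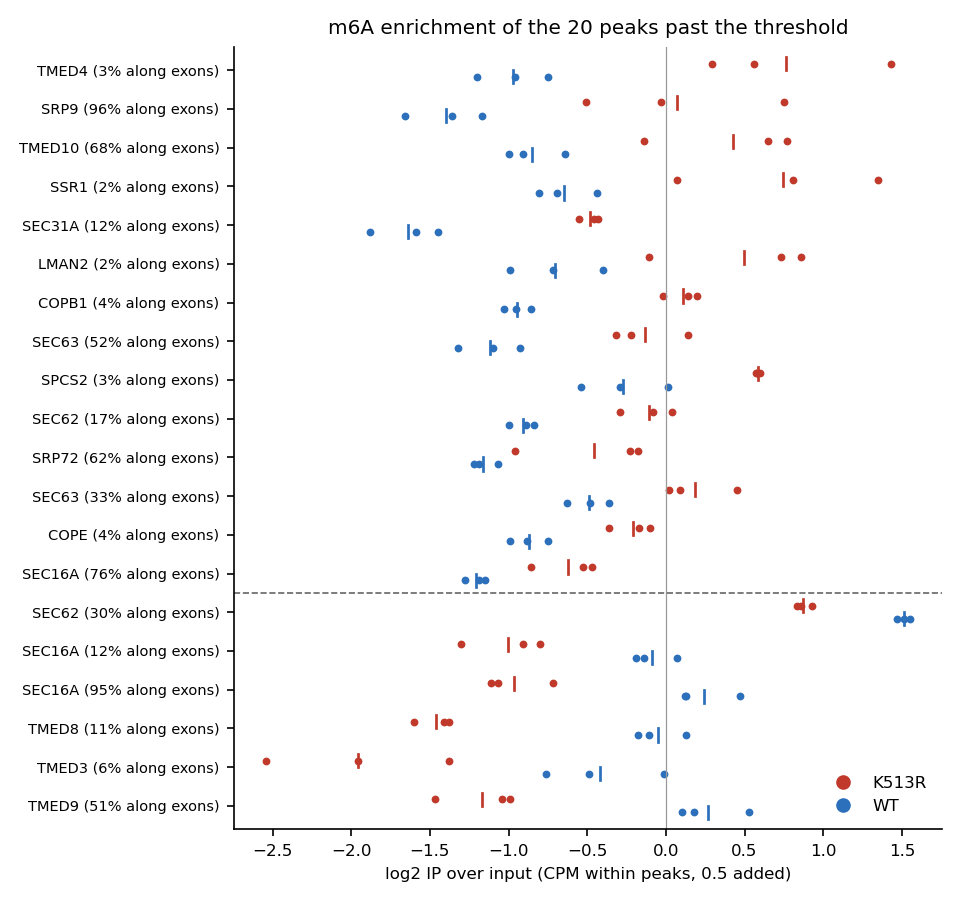
Log2 IP over input per library of the 20 peaks past the threshold, K513R above WT for each peak, with a tick at each mean. The 14 peaks above the dashed line were higher in K513R and the 6 below it lower. The 20 were picked by the test on these same libraries, so the gap between the genotypes at each peak is no further support.

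Where peaks lay along the transcript went with the sign of their median difference. Of the 68 peaks tested, 20 had their midpoint in the first 10% of the merged exons, with a median log2 difference of 0.80, 6 higher and 1 lower. The other 48 had a median of -0.23, 8 higher and 5 lower. The medians had the same signs over all genes as a background. They were 0.62 over 3159 peaks in the first 10% (27.1% higher and 4.24% lower) and -0.27 over the other 15261 (10.1% higher and 12.7% lower). Peaks near the start thus differ this way across the table. Outside the first 10%, the 8 higher and 5 lower peaks of the set are too few to set against all genes. Among the 8, those of SEC31A (2.7% in exons), SRP72 (4.8%), SEC62 (14.2%) and SEC16A (47.2%) lay mostly outside exons of the gene. So did the SEC63 peak with 0.69 (6.1%) and, among the lower ones, that of SEC62 (14.6%). Their position along the merged exons is therefore loosely set. Of the 6 lower peaks 4 touched the last exon, and of the 14 higher peaks 2, beside 30 of the 48 not past the threshold. The annotation of coding and untranslated regions was not used here.

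**Figure D5:**
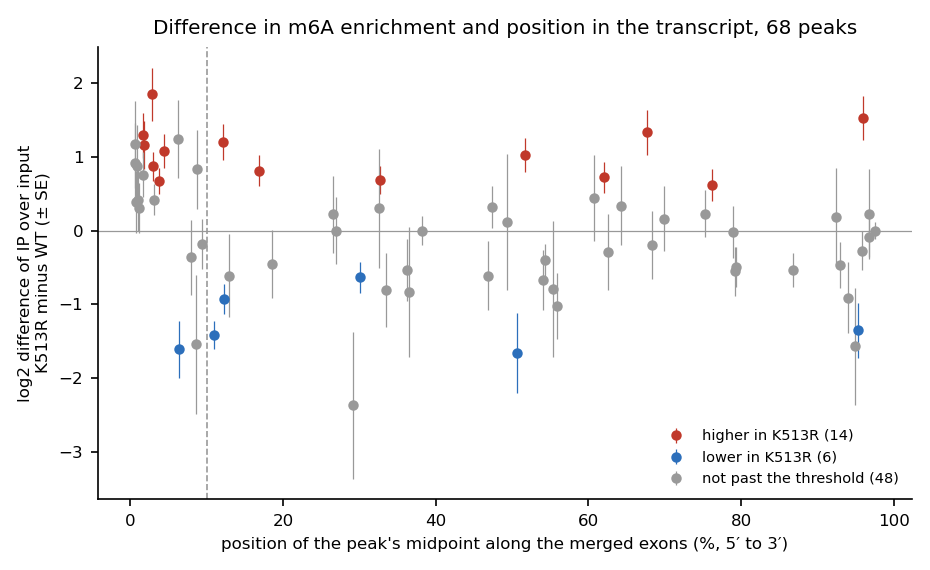
Log2 difference of IP over input, K513R minus WT, with its SE (y axis) against the position of the midpoint of the peak along the merged exons in percent (x axis), for the 68 peaks tested. The dashed line marks 10%, left of which 6 peaks are higher and 1 is lower.

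The peaks were also set beside the RNA-seq changes of their genes. Of the 13 genes with a higher peak, 8 fell in RNA-seq, 3 rose (TMED4, TMED10 and LMAN2) and 2 did not pass. Of the 5 genes with a lower peak, 3 rose (TMED3, TMED8 and TMED9), none fell and SEC16A and SEC62 did not pass. SEC16A and SEC62 are in both groups. Over all genes, 68.7% of 1973 genes with a higher peak fell in RNA-seq and 17.8% rose, while 51.6% of 1833 genes with a lower peak fell and 32.4% rose, beside 54.3% and 29.2% of 9224 genes with any tested peak. The TMED genes held both kinds of peak, and the 5 with a called peak, TMED4, TMED10, TMED3, TMED8 and TMED9, are among the 9 of 10 that rose in RNA-seq.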

How the data were processed

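Per the labels' protocols, RNA-seq libraries were stranded and made from RNA depleted of rRNA, and MeRIP libraries from fragmented poly(A) RNA with molecular identifiers. Per the submitters' processing notes, Trimmomatic 0.36, featureCounts of Subread 1.5.1, bedtools, deepTools and edgeR 3.12.1 were used on GRCh38. The sources used here name no aligner or peak caller. The authors deposited raw gene counts, raw counts per peak in IP and input, and a fold enrichment per peak, which is the authors' own value and was used only to split the peaks. The deposited score equals that fold. The authors' p-values and FDR per peak, and their log2 difference between genotypes with its p-value, are in the deposited peak table and were not used. MALAT1 and its antisense gene TALAM1 had 483088 and 463885 counts in K513R replicate 1, so the gene counts do not separate strands.

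Counts were tested with edgeR 4.0.16 (quasi-likelihood, TMM factors, filterByExpr, Benjamini-Hochberg over all features tested). RNA-seq used 6 libraries, inputs 6 (counts summed per gene over peaks), peaks 12 (interaction of genotype and IP, TMM within IP and within input), and the RNA-seq and input contrast 12 (TMM within each assay over genes with peaks). An SE is the absolute log2 change over the square root of F. Log2 IP over input used CPM + 0.5. Alternatives used DESeq2 1.42.0, limma 3.58.1, other factors and filters, the scaling of the separate fits, a replicate block and each library left out. Scripts were tested on simulated counts.

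Replicate numbers did not pair K513R with WT: deviations of same-numbered libraries correlated at -0.048, 0.184 and 0.045 in RNA-seq and at -0.115, -0.053 and 0.012 in the inputs. Input and IP of a number share their fragmented RNA per the labels' protocols (0.043 to 0.217). Genes were named in each role class by the largest changes past the threshold plus fixed members, and others were added for their roles after their values were seen. The members and gene lists were chosen with earlier results of these data known. No genome sequence was used.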

Additional observations from a re-analysis of the deposited data

Results flagged for a closer look

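TMED5, a p24 cargo receptor, was singled out because its change differed in direction between RNA-seq and the MeRIP inputs. Its log2 change was 0.66 in RNA-seq and -1.01 in the inputs, and the RNA-seq change exceeded the input change by 2.08 in the joint model (edgeR interaction, adjusted p = 7.3e-07). That model scales the RNA-seq counts over genes with peaks alone, and with the scaling of the separate fits the difference was 1.69 (adjusted p = 1.45e-05). All 3 K513R libraries were higher than all 3 WT libraries in RNA-seq and lower than all of them in the inputs. The inputs held 45 counts in K513R and 137 in WT.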

How the results depend on the processing

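Across the alternatives, 16 to 21 of the genes were higher and 26 to 33 lower in RNA-seq, and the RNA-seq change exceeded the input change in 9 to 14 genes and fell short of it in 5 to 7, but in 10 with the scaling of the separate fits, added after the data were seen. In the inputs, 3 genes were higher, and 2 to 5 with 1 library left out; 4 were lower, but 2 with library size only, 2 with 1 peak per gene, and 1 to 5 with 1 library left out. Of the peaks, 14 were higher, but 4 among peaks above the median fold enrichment, 8 when at least 50% of a peak lay in exons, and 6 to 18 with 1 replicate left out; 6 were lower, but 2 among peaks above the median fold enrichment and 2 to 7 with 1 replicate left out. Fewer peaks enter the first 2 of these settings (24 and 54 of 68). LMAN1 (-0.07) changed sign with upper-quartile factors (0.19), a mean of at least 1 CPM (0.06), 7SL, 7SK and mitochondrial genes left out (0.08), and spanned -0.22 to 0.01 with 1 library left out. TMED2 (0.00) was at -0.08 with library size only, -0.07 with no filter, and -0.10 to 0.04 with 1 library left out. The median over all genes moved by more than 0.1 with upper-quartile factors (0.39), no filter (0.65), a mean of at least 1 CPM (0.02) and the abundant RNAs left out (0.30), while the genes described here had medians of -0.17, -0.47, -0.27 and -0.28. With the replicate block the input calls of SEC61A1 (adjusted p = 0.0705) and SPCS2 (adjusted p = 0.059) were lost, and no count moved by over 1.5 times. With input and IP paired, 16 peaks were higher and 7 lower. Input counts of SSR4, SEC61A2 and TMED5 are too few for precise values.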
